A study of Homo sapiens with 20 samples.

Results

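The 6 nickel clones of this study, Ni_clone_1 to Ni_clone_6, were compared with each other. They were chosen by their sample titles and make up 6 of the 20 libraries of the series. All 20 libraries came from BEAS-2B, a human bronchial epithelial cell line that was immortalised with viral genes and grows as a flat culture. To make the clones, cells were kept in nickel chloride for 6 weeks and seeded thinly without nickel, and single separate colonies were picked and grown up, again without nickel. Each clone was therefore the progeny of a picked colony, and each was measured as 1 RNA library, so a difference between clones includes any difference between single cultures, RNA preparations and libraries. The spread between libraries of 1 kind of sample was taken from 4 groups with 2 libraries each: Control_6W (untreated cells, 6 weeks), Ni_6W (6 weeks in nickel), Ni_6W+2W (6 weeks in nickel, then 2 weeks without it) and Ni_3D+14D (3 days in nickel, then 14 days without it). These 4 groups were uncloned cultures of the same cell line, and nothing in the labels says whether their replicates were separate cultures. No clone was compared with a control.

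A culture of an immortalised line is a mixture of cells that have drifted apart over many divisions, and growing single colonies turns part of that hidden variety into differences between cultures. Nickel compounds are carcinogens of the airway, and in cells nickel ions can displace iron in oxygen-sensing and chromatin-modifying enzymes. Picking a colony after exposure therefore gives a view of 1 cell's descendants rather than of the average of the dish.

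The clone libraries held 16524990 (clone 3) to 20009974 (clone 1) reads counted in genes, a narrow range. Levels are given as counts-per-million (CPM) of a library total scaled by the trimmed mean of M-values. A gene was ranked where its mean over the clones was 5 CPM or more, which left 10943 genes, in order of the standard deviation (SD) of log2(CPM + 0.5) over the 6 clones. The 133 genes of chromosome Y and XIST were left out.

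The label "bronchial epithelial cell" was set against markers. The simple-epithelial keratins KRT8 (508 to 838 CPM) and KRT18 (267 to 384 CPM) were read in every clone. CDH1, the epithelial cadherin, stayed between 0 and 0.988 CPM, and the basal-cell markers KRT5 and TP63 did not exceed 0.117 CPM in any clone. Of the 12 basal airway markers 5 reached a mean of 5 CPM, among them KRT17 at 14.4 (clone 5) to 245 CPM (clone 4) and ITGB4 at 21.5 to 88.0 CPM. VIM, a mesenchymal intermediate filament, ran from 1652 CPM in clone 1 to 3594 CPM in clone 5, and CDH2, the neural cadherin, from 183 to 250 CPM. None of the 12 ciliated and secretory airway markers reached a mean of 5 CPM. Of the defining markers of other cells, PECAM1 of endothelium and the surfactant gene SFTPC were at 0 reads in all 6 clones, and PTPRC of leukocytes did not exceed 0.174 CPM. Of the remaining markers of those cells, EGFL7 was read at 60.7 to 121 CPM, CD14 at 10.5 to 22.9 CPM and CD68 at 22.8 to 41.4 CPM, in all 6 clones. Of the 12 alveolar markers ABCA3 was read at 45.1 to 71.2 CPM and LAMP3 at 2.01 to 11.9 CPM, and the other 10 did not reach a mean of 5 CPM. All 6 thus carried keratins of simple epithelium together with mesenchymal genes.

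Most genes were even among the clones. The median SD was 0.20 on the log2 scale, the highest and lowest clone were a median of 1.44-fold apart, and counting error alone gives a median SD of 0.05. The median SD between replicate libraries of the other groups was 0.29, and the clones' SD was above it, gene by gene, in 3106 genes (28.4%). This order depends on the replicates: the median absolute log2 difference was 0.21 in the median clone pair, 0.15 between the Ni_3D+14D libraries and 0.47 between the Ni_6W libraries. A minority of genes varied by much more. The highest and lowest clone were over 2-fold apart in 1464 genes (13.4%), over 4-fold in 279 (2.55%), over 8-fold in 84 and over 16-fold in 35, all on the scale of CPM + 0.5. At the even end stood USP48, a ubiquitin protease, at 86.0 to 89.6 CPM, and RBBP7, a histone-binding protein of several chromatin complexes, at 288 to 303 CPM. The count of genes over 4-fold rests on the lower limit and on clone 1: it was 96 at a minimum mean of 20 CPM, 576 at 1 CPM, and 168 without clone 1.

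Clones 2 and 3 were the closest pair and clone 1 stood farthest from the rest. Between clones 2 and 3 the SD of the log2 difference over genes was 0.28 and 105 genes differed over 2-fold, while clones 1 and 6 had an SD of 0.57 and 698 such genes. Average-linkage clustering joined clones 2 and 3 first, then added clone 4, clone 5, clone 6 and last clone 1. The mean SD to the other 5 clones was 0.51 for clone 1, 0.45 for clone 6, 0.44 for clone 5, 0.41 for clone 4, 0.39 for clone 3 and 0.36 for clone 2. Clones 2 and 3 still differed far beyond counting error, with a chi-square of 17.6 per degree of freedom, so they are not 1 library deposited under 2 names. Replicate pairs ranged from an SD of 0.26 for Ni_3D+14D to 0.75 for Ni_6W, and 13 of the 15 clone pairs had a smaller SD than the Control_6W pair, at 0.55, and 0 a smaller SD than the Ni_3D+14D pair. The Ni_6W pair stands apart, with 1703 genes over 2-fold.

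**Figure D1:**
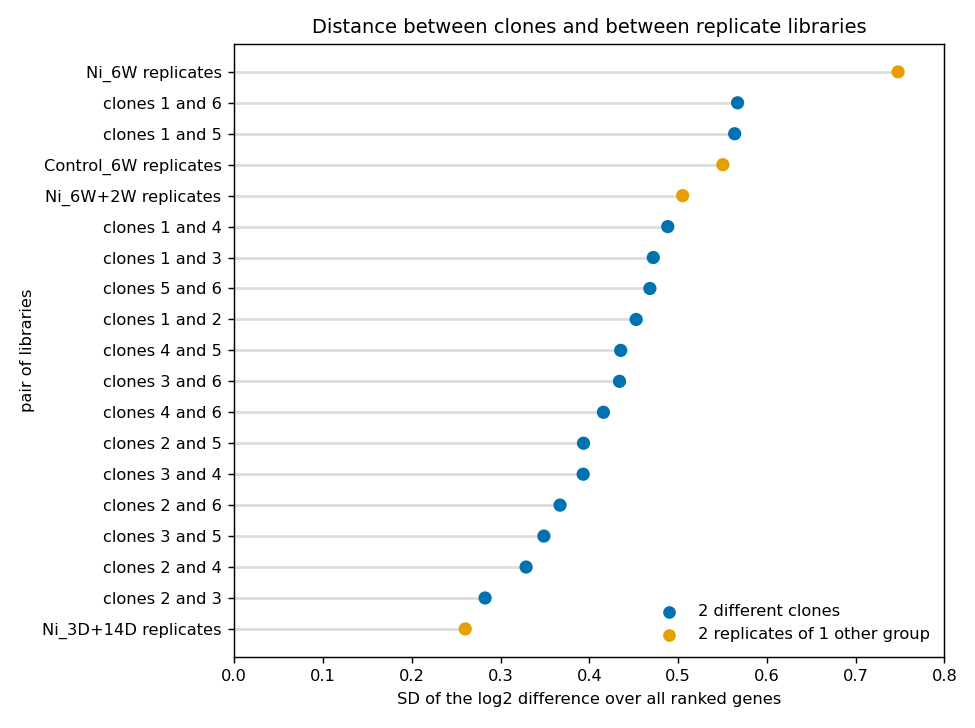
Each point is 1 pair of libraries, and the horizontal axis gives the SD over 10943 genes of the log2 difference between its 2 libraries. The 15 clone pairs (blue) run from 0.28 to 0.57 and lie within the range of the 4 replicate pairs (orange), from 0.26 to 0.75.

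The genes at the top of the ranking are described next. They were chosen by these same values, so no test is attached to them, and rank 30 (IGFN1, SD 1.53) is hardly set off from rank 31 (GALNT14, SD 1.53). On the level limit, C9orf9 (mean 5.01 CPM) lay just inside and DUSP9 (mean 4.999 CPM) just outside. The first group are genes of the extracellular matrix and cell surface. COL1A2, the second chain of type I collagen, was read at 0.281, 10.2, 20.7, 12.7, 25.8 and 98.8 CPM in clones 1 to 6. It was high in clone 6 and nearly silent in clone 1, where 6 reads were counted, a 352-fold range. COL5A3, a minor fibrillar collagen chain, had another order, with 2.81, 40.9, 105, 2.71, 19.2 and 2.85 CPM. Clones 1, 4 and 6 were low and clone 3 was 38.6-fold above the lowest of them. ABI3BP, a matrix protein, stood at 4.35, 20.7, 21.7, 23.6, 23.6 and 159 CPM, so that clones 2 to 5 were alike and clone 6 was set apart. CLSTN2, a calsyntenin of the neuronal membrane, was measured at 2.71, 13.3, 3.86, 66.4, 0.414 and 13.3 CPM, with clone 4 high. NCAM1, the neural cell adhesion molecule, had 0.421, 3.27, 0.297, 8.99, 0.178 and 17.7 CPM and was highest in clones 4 and 6. SLITRK5, a neuronal transmembrane protein, lay at 6.39 to 20.3 CPM in clones 2 to 6 and at 2 reads in clone 1. Between replicates these genes were not all steady: the 2 libraries of Ni_6W+2W differed by 4.60 log2 units in CLSTN2, 3.31 in COL5A3 and 1.24 in COL1A2.

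Several enzymes and regulators were silent or low in 1 or 2 clones. MGMT, the protein that removes alkyl groups from guanine in DNA, was read at 8.76, 2.49, 8.18, 1.54 and 18.1 CPM in clones 2 to 6 and by 1 read in clone 1. TRIM58, an E3 ubiquitin ligase of red-cell maturation, likewise had 1 read in clone 1 and 1.18 to 10.1 CPM elsewhere. SELENBP1, a selenium-binding methanethiol oxidase, had no read in clone 1 and 9.16, 17.3, 13.7, 17.2 and 2.91 CPM in clones 2 to 6, at least 123-fold higher in clone 3 when clone 1 is set to a floor of 3 reads. SLC38A5, a glutamine transporter, was measured at 0.562, 13.8, 20.6, 20.1, 10.5 and 1.28 CPM, low in clones 1 and 6. Clone 5 was low in others, in some of them together with clone 6. RIMS4, a protein of synaptic active zones, was at 26.9, 4.73, 3.44 and 5.72 CPM in clones 1 to 4 and at 2 reads in clone 5. DSC2, a desmosomal cadherin, was at 7.72, 14.1, 3.74, 4.39, 0.237 and 18.1 CPM. CNKSR1, a scaffold of Ras signalling, was at 20.03, 7.25, 7.71 and 6.85 CPM in clones 1 to 4 and low in clone 5 (0.592 CPM) and clone 6 (1.28 CPM). EYA2, a phosphatase and transcriptional co-activator, had the same pair of low clones, with 23.6, 9.77, 13.5, 7.82, 0.888 and 1.39 CPM, and so did H19, an imprinted non-coding RNA made from the maternal allele, with 56.4, 48.5, 29, 67.1, 3.91 and 8.14 CPM. DPYSL3, a cytoskeletal regulator of growth cones, went the other way and was highest in clone 5 (31.4 CPM) and lowest in clone 1 (0.702 CPM).

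Secreted and inducible genes formed a further set. KISS1, which encodes the kisspeptin precursor, was at 0.328, 9.97, 2.49, 39.4, 3.26 and 1.39 CPM, with clone 4 high. SAA1, an acute-phase apolipoprotein, was at 432, 279, 41.4, 327, 35.3 and 443 CPM, and its neighbour SAA2 at 119, 85.1, 12.9, 68.4, 12.5 and 129 CPM. Clones 3 and 5 were low in both. These copies lie 21.0 kb apart and are near-identical, so reads could be split between them, and replicate libraries of Ni_6W+2W and Control_6W differed by 2.98 and 2.63 log2 units in SAA1. CD74, the invariant chain of MHC class II, was at 30.8, 14.4, 5.58, 26.1, 3.08 and 1.98 CPM. C15orf48, an inducible mitochondrial protein, was at 32.3, 6.70, 1.25, 7.20, 3.49 and 25.9 CPM, and NUPR1, a stress-induced nuclear protein, at 14.7, 1.21, 1.96 and 6.29 CPM in clones 1 to 4, 2 reads in clone 5 and 14.9 CPM in clone 6. Both were highest in clones 1 and 6, which stood far apart over all genes. FBXL16, an F-box protein, ranged 79.6-fold, from 0.421 CPM in clone 1 to 33.5 CPM in clone 6. C19orf33 had no read in clone 3 and 17.4 CPM in clone 4, at least 97.9-fold more than the floor.

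The first and second ranks were readthrough loci, whose annotated RNA spans neighbouring genes. TMX2-CTNND1 was at 29.8 CPM in clone 3, 20.6 CPM in clone 5 and 0 in the other 4, while its parent TMX2 stayed at 60.2 to 89.2 CPM and CTNND1 at 189 to 243 CPM. SPECC1L-ADORA2A had 0, 0, 14.7, 7.87, 1.18 and 17.4 CPM. The replicates of Ni_3D+14D, the closest pair of replicates over all genes, differed by 5.82 log2 units in TMX2-CTNND1 and 5.01 in SPECC1L-ADORA2A. How the authors' counting assigned reads to overlapping records is not given in the sources used here, so these values are uncertain. The same holds for ATP5J2-PTCD1, RPS10-NUDT3 and BIVM-ERCC5, which were among the lowest genes of clone 2 or clone 3.

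**Figure D2:**
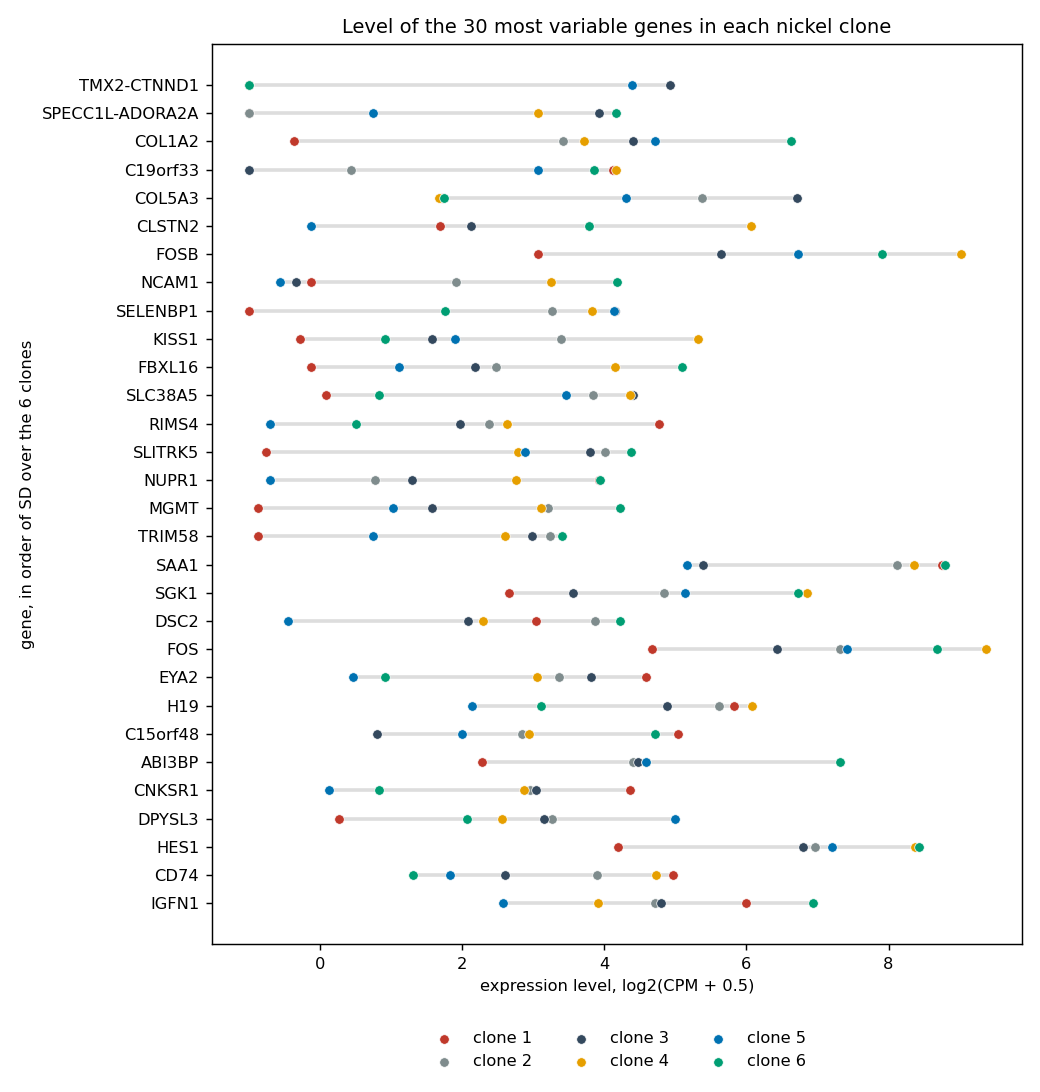
Each row is 1 of the 30 genes with the highest SD and each point 1 clone, placed by log2(CPM + 0.5). Clone 1 lies far to the left in COL1A2, MGMT and SELENBP1, clone 4 to the right in CLSTN2, FOSB and KISS1, and clone 6 to the right in ABI3BP and COL1A2.

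Several stimulus-inducible genes stood among the highly ranked genes. FOSB and FOS, subunits of the AP-1 transcription factor that are made within minutes of a stimulus, were both highest in clone 4 and lowest in clone 1. FOSB was read at 7.91, 105, 49.6, 516, 105 and 240 CPM, a 65.3-fold range. FOS was read at 25, 159, 85.5, 659, 171 and 409 CPM, a 26.4-fold range. SGK1, a serum-inducible kinase, was at 5.80, 28, 11.3, 115, 34.8 and 106 CPM. HES1, a repressor downstream of Notch, was at 17.8, 124, 110, 332, 147 and 343 CPM. The order was the same in the first 3 of these genes, with clones 4 and 6 high, clones 2 and 5 between, and clones 3 and 1 low. A list of 27 immediate early genes was drawn up after these values had been seen, so its direction is not independent of them. Of its 24 ranked members 18 were highest in clone 4, 14 were lowest in clone 1 and 8 in clone 3, where 15.6% of all genes were highest in clone 4 and 11.1% lowest in clone 3. The median log2 difference from the other 5 clones was 1.42 in clone 4, 1.12 in clone 6, -0.75 in clone 3 and -0.97 in clone 1. EGR1, an inducible zinc-finger factor, was at 200, 650, 382, 1833, 791 and 1735 CPM, and DUSP1, a phosphatase that turns off MAP kinases, at 145, 323, 177, 1264, 348 and 888 CPM. CTGF, a target of TGF-beta and YAP signalling, was at 114, 387, 283, 1158, 531 and 1227 CPM. Replicate libraries moved in these genes too: the largest median of the list between 2 replicates was 0.89, in the Ni_6W pair, and FOS differed by 1.78 log2 units between the Control_6W libraries.

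Promoter sequences are shown for 3 of the variable genes, marked for TATAAA or CpG, which were counted over the ranking. They come from RefSeq on GRCh38.p14 and cover the 250 bases before the transcription start, 5′ to 3′ on the gene's strand. FOSB (chr19:45467746-45467995) and FOS (chr14:75278578-75278827) are the pair that moved together in the paragraph above, with the TATAAA box in capitals. MGMT (chr10:129466991-129467240) is the gene with 1 read in clone 1, with each CpG in capitals.
FOSB: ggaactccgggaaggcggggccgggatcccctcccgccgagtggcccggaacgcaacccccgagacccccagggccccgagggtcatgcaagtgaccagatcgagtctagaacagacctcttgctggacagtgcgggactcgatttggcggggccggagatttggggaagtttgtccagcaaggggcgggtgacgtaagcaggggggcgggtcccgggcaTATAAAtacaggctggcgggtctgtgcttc
FOS: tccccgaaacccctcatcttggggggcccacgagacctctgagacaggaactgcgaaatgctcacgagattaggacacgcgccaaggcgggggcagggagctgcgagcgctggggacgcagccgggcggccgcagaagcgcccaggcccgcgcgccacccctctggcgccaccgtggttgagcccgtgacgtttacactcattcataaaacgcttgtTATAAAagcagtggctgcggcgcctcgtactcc
MGMT: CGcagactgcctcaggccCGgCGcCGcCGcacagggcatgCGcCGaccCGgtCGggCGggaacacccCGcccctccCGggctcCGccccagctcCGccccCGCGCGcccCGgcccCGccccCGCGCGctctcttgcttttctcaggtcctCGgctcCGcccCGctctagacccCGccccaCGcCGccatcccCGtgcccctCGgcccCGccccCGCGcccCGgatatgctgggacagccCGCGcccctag
FOSB and FOS each hold 1 TATAAA, 19 and 25 CpG. The MGMT stretch holds 36 CpG and no TATAAA, so it is not one of the promoters with under 10 CpG. Promoters from 250 bases before to 50 after the start were matched by symbol for 67 of the 100 genes of highest SD and for 8440 of all 10943. TATAAA on either strand was in 14.9% of the 67 and 4.68% of the 8440, and under 10 CpG in 25.4% and 8.16%. Among all 27305 promoters of the table, expressed here or not, these shares were 12% and 44.0%. A match is only these letters in this window, and methylation was not measured.

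In the test of all clones, edgeR's quasi-likelihood test asked of 14562 genes whether the 6 clones were equal, with the spread taken from the replicated groups. No gene had an adjusted p under 0.05 (0.0%), and 435 (2.99%) had an unadjusted p under 0.05. DESeq2 on the same libraries called 136, and edgeR without a count filter called 134, so the count depends on the tool and on the filter. In simulated counts of the same design the edgeR test recovered 3.33% of 2-fold, 44.7% of 4-fold, 78% of 8-fold and 96% of 16-fold changes planted in 1 clone. Small planted changes were therefore mostly not recovered. Planted changes of 8-fold and 16-fold mostly were, beside a mean of 18.3 false calls per draw. In the measured counts 84 ranked genes ranged over 8-fold and 35 over 16-fold, yet no gene was called. The recovery of planted changes therefore does not describe these variable genes.

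Clone 1 differed from the mean of the other 5 in 6 genes in the same fit, 4 higher (0.0275%) and 2 lower (0.0137%), at an adjusted p under 0.05 over genes but not over the 6 clones. DESeq2 called 94, of them 34 higher, and edgeR without a count filter 142. MCTP2, a calcium-binding membrane protein, was at 14.7 CPM in clone 1 and 0 in the other 5 (edgeR adjusted p = 0.00396). TMEM200C, a transmembrane protein, was at 7.54, 0.201, 0, 0.409, 0 and 0 CPM (edgeR adjusted p = 0.0178). L3MBTL4, of a family of chromatin readers and a neighbour of TMEM200C on chromosome 18, was at 5.48, 1.81, 0.237, 1.17, 0 and 0.0581 CPM (log2 difference 4.91, SE 0.61; edgeR adjusted p = 0.0448). Clone 1 was highest in each of these 3 genes, which had been picked out by the test. BDKRB2, the B2 bradykinin receptor, was at 40.2, 8.21, 8.90, 3.22, 4.73 and 4.77 CPM (log2 difference 2.85, SE 0.33; edgeR adjusted p = 0.0395). The lower genes were SELENBP1 (edgeR adjusted p = 0.0128) and SLC38A5 (log2 difference -4.07, SE 0.50; edgeR adjusted p = 0.0448), whose levels are given above. MCTP2 passed the threshold in 18 of 18 alternative settings, SELENBP1 in 15 of 18 and TMEM200C in 12 of 17. BDKRB2 passed it in 8 of 18, SLC38A5 in 6 of 18 and L3MBTL4 in 4 of 18, so these 3 calls were lost in most settings. The count of 6 was 1 without either Control_6W library, 2 without either Ni_3D+14D library, 3 without clone 4, clone 5 or either Ni_6W+2W library, and 4 without clone 3 or clone 6.

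Clone 6 differed from the mean of the others in 2 genes, both higher (0.0137%). ABI3BP (log2 difference 3.30, SE 0.35; edgeR adjusted p = 0.0408) is described above. IGFN1, an immunoglobulin and fibronectin domain protein of muscle, was at 63.6, 25.8, 27.5, 14.6, 5.44 and 122 CPM (log2 difference 2.58, SE 0.27; edgeR adjusted p = 0.0408). Clone 1 was the next highest in IGFN1, so clones 1 and 6 shared this direction. Both calls are near the threshold: ABI3BP passed it in 3 of 18 alternative settings and IGFN1 in 7 of 18, and clone 6 kept 2 genes without a Ni_6W library, 1 without clone 1, and 0 without any other single library of the fit. DESeq2 called 36 and edgeR without a count filter 43.

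For clones 2, 3, 4 and 5 edgeR called 0 genes (0.0% in each direction), with 177, 204, 303 and 336 genes at an unadjusted p under 0.05. DESeq2 called 2, 8, 14 and 15, and edgeR without a count filter 16, 14, 29 and 9. The threshold being met in clone 1 and not in clone 2 does not show that these clones differ in how far they depart; that was not tested.

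Counted by size alone, the clones departed in different directions. Clone 1 was over 2-fold above the median of the other 5 in 199 genes (1.82%) and over 2-fold below it in 187 (1.71%). Clone 5 was mainly low, with 46 genes above (0.42%) and 197 below (1.8%), and clone 4 mainly high, with 114 above (1.04%) and 23 below (0.21%). Clone 6 had 114 above (1.04%) and 123 below (1.12%). Clone 2 had the fewest, 40 above (0.366%) and 28 below (0.256%), and clone 3 had 44 above (0.402%) and 49 below (0.448%). In 272 genes the clones fell into a lower and a higher set with a gap of over 2-fold, and 127 had 1 clone alone at the bottom and 87 had 1 clone alone at the top. The low clone was clone 1 in 52, clone 5 in 43 and clone 6 in 26. The most frequent other division had clones 4 and 6 above the rest, in 11 genes.

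Genes that set a clone off from the rest are given by clone. DHRS3, a retinal reductase, was at 40.8 CPM in clone 1 and at most 6.70 CPM elsewhere. GALNT14, a mucin-type glycosyltransferase, was at 0.374 CPM there and at least 6.23 CPM elsewhere. Both genes made clone 1 the outermost clone. KLF4, a zinc-finger transcription factor, reached 51.2 CPM in clone 4 and 31 CPM in clone 6, against 8.23 to 11.23 CPM in the other 4. RASGRF1, an exchange factor for Ras, divided the clones in the same way, with 37.7 and 43.7 CPM in clones 4 and 6 and 3.89 to 12.2 CPM elsewhere. Clones 4 and 6, which shared the high immediate early genes, thus also shared these. HMGA2, a chromatin architecture protein of embryonic tissue, was at 14.3 CPM in clone 5, 8.75 CPM in clone 1 and 1.28 to 3.80 CPM in the other 4. WT1, a zinc-finger factor of mesothelium and kidney, was also highest in clone 5, at 20.9 CPM, and lowest in clone 6, at 1.34 CPM. CHAC1, an enzyme that degrades glutathione, was low only in clone 5, at 4.44 CPM against 21.5 to 49.5 CPM. Clone 5 was at an end of the range in all 3. CYBA, a subunit of NADPH oxidase, was at 10.8 CPM in clone 6 and 64.0 to 107 CPM in the others. NLRP2, an innate immune sensor, was likewise lowest in clone 6, at 3.55 CPM against 19 to 36.7 CPM. ELAVL2, a neuronal RNA-binding protein, was at 29.1 CPM in clone 6 and 4.50 to 13.0 CPM in the others.

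Genes of the epithelial to mesenchymal transition were looked at in all cases. ZEB1, a repressor of epithelial genes, was at 13.9, 7.85, 8.13, 9.66, 9.17 and 14.6 CPM, and its relative ZEB2 at 81.1 to 119 CPM. SNAI2, another repressor of epithelial genes, was at 1.36 CPM in clone 1 and 6.09 to 12.3 CPM in the others. FN1, fibronectin, was at 216, 1198, 2116, 673, 623 and 863 CPM, a 9.78-fold range with clone 1 lowest and clone 3 highest. The edgeR adjusted p over all clones was 0.411 for FN1 and 1 for ZEB1, ZEB2, SNAI2, VIM, CDH1, CDH2 and EPCAM, and for FN1 DESeq2 gave an adjusted p of 9.76e-09. EPCAM, an epithelial adhesion molecule, was low in all, at 1.72 to 5.48 CPM, with clone 1 highest.

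Pathway lists were described by where their members were highest or lowest, without a set test. No member of any list was called by edgeR over all clones. DESeq2 called 31 of the 782 listed genes with an adjusted p (3.96%), each counted once, beside 136 of 13997 over all genes (0.972%). The median of a list in a clone, against the median of the other 5, is set beside the median difference between 2 replicate libraries. The largest of 4 such pairs is given. These scales are unlike, since a clone is set against a median of 5 libraries and a replicate against 1 library. The largest clone median exceeded the replicates' largest in size in 6 of 32 lists with 5 or more ranked members. These were cholesterol synthesis, mesenchymal identity, neural adhesion, histones, cell surface adhesion and the immediate early genes, a list made because of these values. After centring by GC content cell surface adhesion was no longer beyond the replicates, and p53 targets were (0.22 against 0.13). Of all ranked genes, 23.9% were highest in clone 1 and 26.0% lowest, 18.4% were highest in clone 6 and 19.5% lowest, and 24.6% were highest in clone 5 and 13.8% lowest. The shares were 15.6% highest in clone 4 and 11.1% lowest in clone 3, and the list counts are to be read against them.

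Cholesterol synthesis genes ran in parallel across the clones. These genes are switched on together by the SREBP factors when the endoplasmic reticulum is short of sterol. Of 26 ranked members 22 were highest in clone 6, 18 lowest in clone 1 and 7 lowest in clone 3, and 20 had a range over 2-fold against 13.4% of all genes. The median log2 difference was -0.80 in clone 1, -0.49 in clone 3, 0.27 in clone 5 and 0.65 in clone 6, while the largest between replicates was 0.32. HMGCS1, an early enzyme of the pathway, was at 25.8, 62.3, 39.5, 44.3, 85.3 and 157 CPM. INSIG1, the sterol-regulated brake on SREBP, was at 26.6, 63.0, 33.7, 79.3, 121 and 146 CPM. Both were highest in clone 6 and lowest in clone 1, with clone 3 low in each. In the edgeR test 10 of the 26 had an unadjusted p under 0.05, against 2.99% of all genes, and none passed adjustment.

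Mesenchymal genes were lowest in clone 1. Of 30 ranked members 19 were lowest there, and the median log2 difference was -0.59, beyond the largest of 0.27 between replicates. TAGLN, an actin-bundling protein of smooth muscle, was at 34.3, 265, 428, 197, 174 and 753 CPM, but differed by 2.4 log2 units between the Ni_6W libraries. TGFBI, a matrix protein induced by TGF-beta, was at 770, 730, 2108, 440, 1198 and 562 CPM, where clone 3 was highest and clone 4 lowest, so the members did not all follow 1 order. The 8 ranked genes of neural adhesion and secretion had a median of -0.56 in clone 1 against at most 0.11 between replicates, or -0.57 against 0.41 after GC centring. TUBB3, a neuronal tubulin, was at 35.5 CPM in clone 1 and 70.6 to 119 CPM elsewhere. The 6 ranked replication-dependent histones, whose RNA is largely not polyadenylated, had a median of -0.66 in clone 1, with 5 of them lowest there.

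Other lists had a leading clone but moved as much or more between replicates. Of 40 hypoxia targets 31 were highest in clone 6 (median 0.54), yet the Ni_6W replicates differed by -0.90. DDIT4, an inhibitor of mTOR induced by hypoxia, was at 239 CPM in clone 6 and 49.0 to 66.5 CPM elsewhere, and differed by 3.34 log2 units between the Ni_6W libraries. ANGPTL4, a hypoxia and lipid-responsive secreted protein, ran against the list, with 17.8 CPM in clone 1 and 0.872 CPM in clone 6. Of 37 interferon-stimulated genes 22 were lowest in clone 5 and 20 highest in clone 1, with a median of -0.50 in clone 5 and of up to 0.71 in size between replicates. OASL, an oligoadenylate synthase-like protein, was at 24.9, 9.92, 6.53, 8.64, 0.888 and 4.24 CPM. Ribosomal protein genes showed the same rank many times over at a small size: 40 of 47 were highest in clone 5, the median was 0.26, and none ranged over 2-fold. Of 13 HOX genes 9 were lowest in clone 6. Cell cycle genes (3 of 38 over 2-fold) and chromatin-modifying enzymes (2 of 41) were among the evenest lists.

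**Figure D3:**
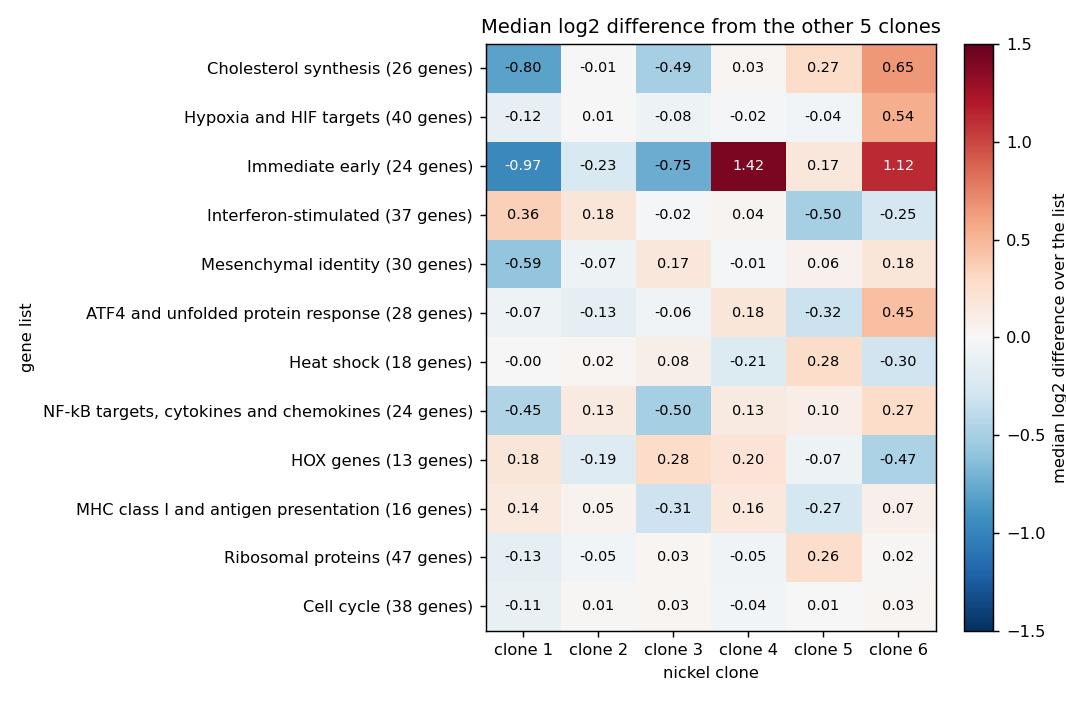
Rows are gene lists with the number of ranked genes, columns the 6 clones, and the colour the median log2 difference from the other 5 clones. Clone 4 is high and clone 1 low in immediate early genes (1.42 and -0.97), and clone 6 is high and clone 1 low in cholesterol synthesis (0.65 and -0.80).

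Differences also ran along the chromosomes. The ranked genes were cut into 218 windows of 45 to 53 neighbours, and for each clone the median log2 difference from the other 5 was taken over a window. Coordinates are those of the files, which fall on hg19. A size of 0.3 was passed in 29 windows of clone 1, 19 of clone 6, 5 of clone 5, 3 of clone 4, 2 of clone 2 and 0 of clone 3. This size was chosen after the values had been seen. Between replicates it was passed in 0 windows of Control_6W and Ni_3D+14D, 9 of Ni_6W+2W and 74 of Ni_6W. For replicates 1 library was set against another, not against a median of 5, so the scales are unlike. Replicates of Ni_6W differed with transcript GC content (r = 0.48 over genes, a description), and 3 of their windows passed 0.3 after levels had been centred in 20 bins of GC, which left 28 for clone 1, 18 for clone 6, 2 for clone 2 and 0 for clone 4, with 8 for clone 5. Clone 4 also differed from the others with GC content (r = 0.38 over genes).

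In clone 1 the end of chromosome 1 was low, from 208.2 to 249.2 Mb: 147 genes had a median of -0.70, and 95.9% were below the other clones' median. The window before it had a median of -0.05. The whole of chromosome 22 (285 genes, median -0.46) and of chromosome 13 (183 genes, -0.43) were also low in clone 1, as were chromosome 3 from 3.17 to 69.1 Mb (294 genes, -0.35) and chromosome 9 from 103.1 Mb to its end (255 genes, -0.36). In clone 6, chromosome 7 up to 44.6 Mb (154 genes, -0.49) and chromosome 19 from 39.5 Mb (304 genes, -0.46) were low, and chromosome 5 up to 55.0 Mb (102 genes, 0.55) and chromosome 16 from 56.5 Mb (200 genes, 0.39) were high. Clone 2 was low on chromosome 9 up to 37.4 Mb (104 genes, -0.40). Clone 5 was high on chromosome 7 from 73.0 to 105.5 Mb (153 genes, 0.36) and low on chromosome 13 from 36.1 to 98.1 Mb (92 genes, -0.36). The limits of all these stretches follow the 0.3 mark. In clone 5 the windows on either side were at 0.23 and 0.24 on chromosome 7 and at -0.29 on chromosome 13. Over all of chromosome 13 its median was -0.33, with 94.0% of genes below. Clone 3 passed 0.3 in no window, but over all of chromosome 6 (543 genes) its median was -0.22, with 89.5% of genes below. Replicate pairs differed by -0.10 to -0.003 over that chromosome. Beside the stretches of clone 1 on chromosome 9 and clone 6 on chromosome 7 the windows were at -0.296 and -0.26. Those beside the remaining stretches ran from -0.05 to 0.08. Replicates differed over some of these stretches too. Both Ni_6W and Ni_6W+2W replicates differed on chromosome 13, by -0.65 and -0.40 up to 98.1 Mb, and the Ni_6W pair differed on chromosome 5 (-0.48) and on chromosome 19 from 36.1 to 51.9 Mb (0.46). After GC centring the Ni_6W pair kept a run on chromosome 5 (-0.43) and none on chromosomes 13 and 19. Centring also gave clone 1 a high run on chromosome 3 from 93.7 to 129.1 Mb (102 genes, 0.33). Clone 6 then had a high run on chromosome 1 from 201.1 to 222.9 Mb (98 genes, 0.32). As measured, the largest window between replicates reached 0.77 and 1 clone window exceeded it (0.459% of clone 1's windows, 0.0% in the other clones). With GC centring the replicates' largest was 0.48 and 10 clone windows exceeded it. With plain library totals in place of scaled ones the stretches of clone 1 on chromosomes 3 and 9 came to -0.24 and -0.25, and the end of chromosome 1 to -0.59. DNA was not measured, and the reason for these stretches was not tested.

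**Figure D4:**
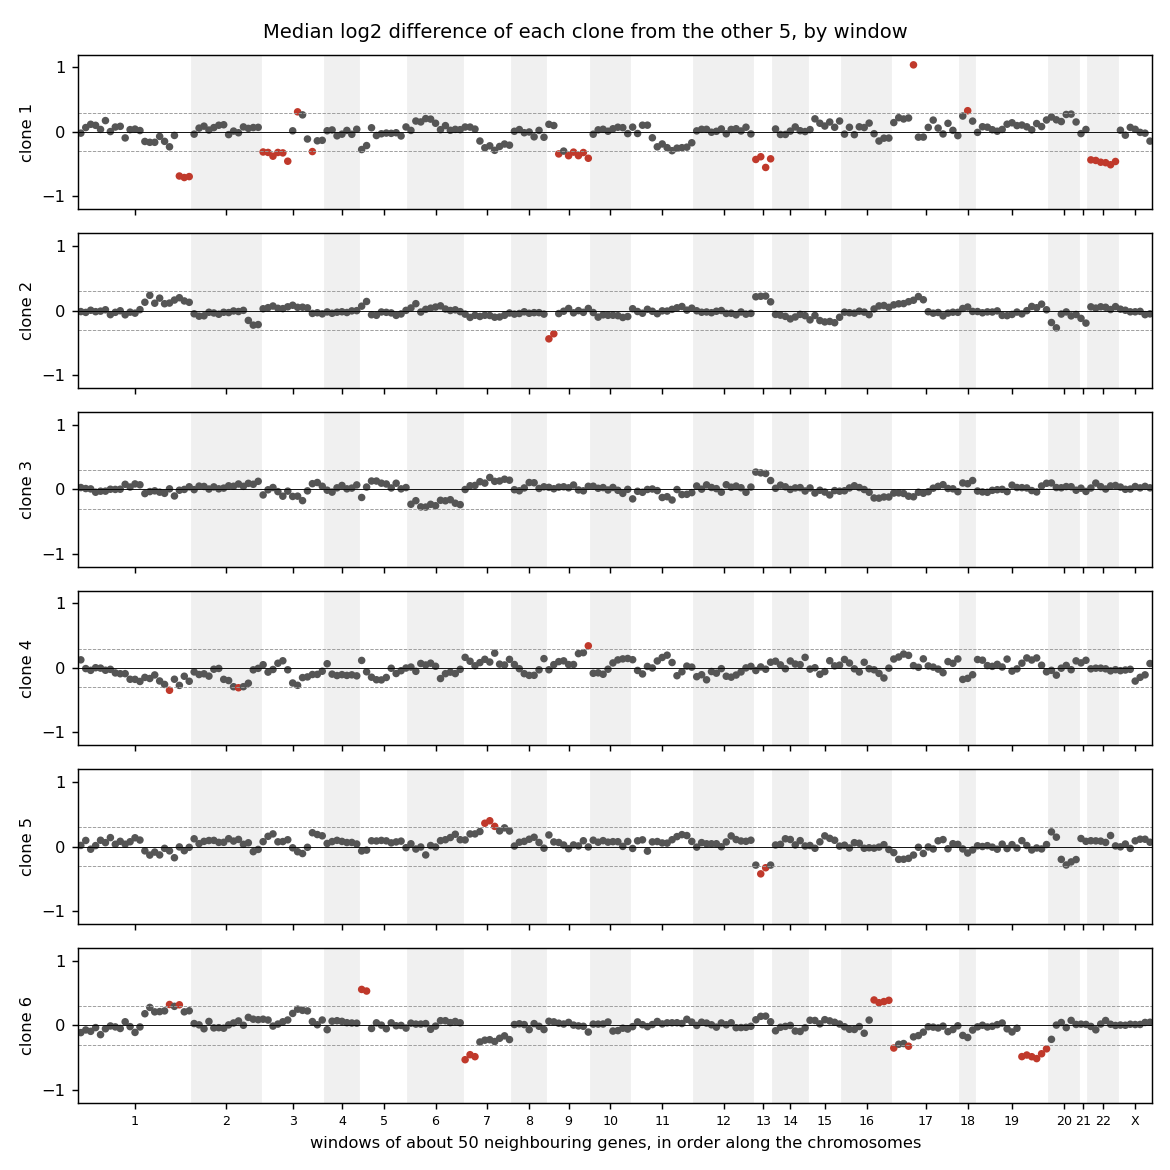
Each panel is 1 clone and each point 1 window of about 50 neighbouring genes in order along the chromosomes, with the median log2 difference from the other 5 clones on the vertical axis. Clone 1 shows 1 window at 1.04 on chromosome 17 and a low end of chromosome 1 (-0.70), and clone 3 stays within 0.28 of 0. Over chromosome 6 as a whole clone 3 is low (median -0.22).

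The 1 window beyond all replicates lay on the long arm of chromosome 17 in clone 1. From KSR1 to NF1 (chr17:25799037-29704695, 3.91 Mb) 47 of 48 ranked genes were higher in clone 1 than the median of the others, each by over 0.5 on the log2 scale. The median was 1.08, a 2.11-fold difference, with quartiles of 0.99 and 1.2. These limits were set after seeing the values. KSR1, a scaffold of the MAP kinase cascade, was at 35.3 CPM in clone 1 and 8.94 to 13.9 CPM in the others. NLK, a serine/threonine kinase, was at 54.0 CPM against 16.9 to 23 CPM. BLMH, the bleomycin hydrolase, was at 148 CPM against 54.2 to 81.8 CPM. NF1, neurofibromin, which switches off Ras, was at 223 CPM against 93.1 to 117 CPM. Clone 1 lay above all other clones in each of these 4. The exception was ALDOC, a glycolytic aldolase, at 3.18 CPM in clone 1 and 10.02 to 35.7 CPM elsewhere. WSB1, the ranked gene before the stretch, was 0.41 higher in clone 1. The 9 ranked genes after the stretch had a median of -0.06. Among these was SUZ12, a subunit of Polycomb repressive complex 2, at 107 CPM in clone 1 and 102.4 to 139 CPM in the others. CDK5R1, the last of the 9, was 0.59 higher in clone 1. MYO1D, the gene after it, was 1.17 higher, at 25.7 CPM in clone 1 against 2.27 to 15.7 CPM. Over the same 48 genes the other clones had medians from -0.19 to 0.15, and replicate pairs from 0.02 to 0.07.

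**Figure D5:**
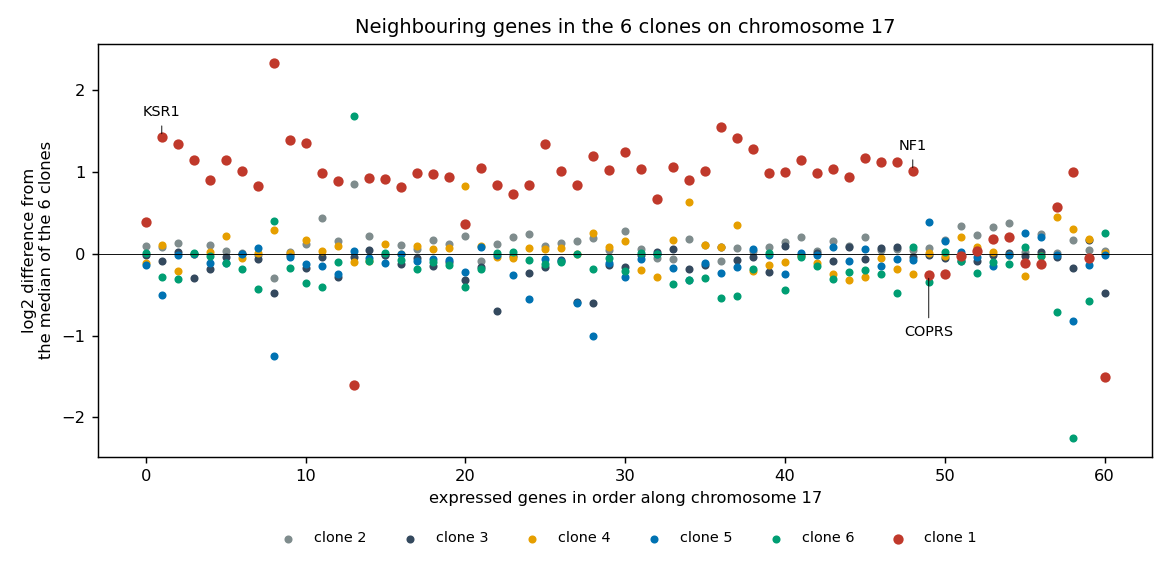
Ranked genes of chromosome 17 are placed in order along the chromosome, with the log2 difference of each clone from the median of the 6 on the vertical axis. Clone 1 lies about 1 unit above the other clones from KSR1 to NF1 (median 1.08), with ALDOC the only gene below. The next 9 genes after NF1 have a median of -0.06 against the other 5 clones. CDK5R1, the last of them, and MYO1D, the gene after it, are higher in clone 1, and CCL2 is lower.

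The chromosome stretches held part of the single-gene differences. They were picked by these same values, so a raised share of differing genes inside them was built in. In clone 1 they contained 1215 genes (11.1% of all ranked) and 21.8% of the genes that differed over 2-fold from the other clones, 38 of the 199 above and 46 of the 187 below. The stretches are those found without GC centring, and the only high stretch among those of clone 1 was the chromosome 17 window (51 genes, median 1.04). In clone 6 they contained 760 genes (6.95%) and 14.8% of the differing genes. In clone 5 the shares were 2.24% and 2.06%. In the 4 clones with such stretches most of the genes over 2-fold lay outside them. The most variable genes were not crowded together either: 8 of the first 100 by SD had another of them within 500 kb, against 16, 25 and 15 for the sets of 100 that start at ranks 1001, 2001 and 3001.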

How the data were processed

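RNA of BEAS-2B cells was isolated with an RNeasy kit and made into libraries with an Illumina TruSeq RNA kit, per the labels' protocols. The submitters' processing notes name STAR 2.4, DESeq, DESeq2 and the builds GRCh37 and hg19, without saying which step used which. The authors deposited raw read counts per RefSeq gene for each library, and the strand setting of the counting is not given in the sources used here. The 14 libraries used here were joined by RefSeq identifier, since symbols differ in a few files, and 0 columns of other samples were left aside. The members and gene lists were chosen with earlier results of these data known.

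Counts were scaled by the trimmed mean of M-values (TMM) and genes with a mean of 5 CPM or more over the clones were ranked by the SD of log2(CPM + 0.5). Tests were fitted in edgeR 4.0.16 (limma 3.58.1, R 4.3.3) by quasi-likelihood on 14562 genes kept by a count filter (10 reads, 15 in total), with 10 group means over 14 libraries and 4 residual degrees of freedom. Each clone is its own group, so the spread comes from Control_6W, Ni_6W, Ni_6W+2W and Ni_3D+14D. Each clone is assumed to vary like them. The labels do not say that these replicates were separate cultures, so the p-values rest on a spread that may be technical in part or whole. The test of all clones was also run on simulated data (3 draws, a mean of 18.3 false calls among 14436 genes). The means and spread of these data came from the fit to the measured counts. Adjusted p is Benjamini-Hochberg over all genes within a comparison. DESeq2 1.42.0, RLE size factors, no count filter, all 20 libraries, each library left out, other level limits, pseudocounts and windows were alternatives. Spread from Ni_6W and Ni_6W+2W alone and GC centring were added after seeing the data. The depth of 16524990 to 20009974 reads per clone makes 3 reads about 0.140 CPM in clone 1. Windows, neighbours and figures were made with Python 3.11.15, pandas 2.3.3, numpy 2.4.6, scipy 1.17.1 and matplotlib 3.10.9.

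Named genes are the 30 of highest SD with a named symbol, the 3 highest and 3 lowest of each clone among the rest, 8 genes of epithelial and mesenchymal identity in all cases, up to 4 members of highest SD from a described list, and the 5 of lowest SD. Genes called by the test, immediate early genes and the chromosome 17 genes were named after their values were seen. Some members of the cholesterol synthesis list are not reported here by name.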

Additional observations from a re-analysis of the deposited data

Results flagged for a closer look

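In a set of 6 clones, a clone was singled out where the gap from it to its nearest neighbour took up more of the whole range of the 6 log2 levels than Dixon's critical value for 6 samples allows. In groups not chosen by their values, chance does this in about 1 in 20. It happened for 16 of the 192 named genes and 4 of 23 chromosome medians, and 6 of the 16 genes lay in a chromosome stretch that differed in the same clone. The named genes were partly chosen for their range, and some because 1 clone lay far above or below the others. That choice favours a separate clone, so these shares are not a rate and are not to be read against 1 in 20.

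Clone 1 was the separate clone in 7 genes. It was low in SLITRK5 (gap over range 0.6888; in the low stretch of chromosome 13), GALNT14 (0.7186), SNAI2 (0.6567), TGFB2 (0.6954; in the low end of chromosome 1) and IGFBP3 (0.6962). TGFB2, a TGF-beta ligand, was at 42.8 CPM against at least 139 CPM, and IGFBP3, a carrier of insulin-like growth factors, at 72.9 CPM against at least 298 CPM. It was high in DHRS3 (0.743) and in ALDH1A3 (0.8388), both enzymes of retinoid metabolism, with ALDH1A3 at 32.1 CPM against at most 6.17 CPM.

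Clone 5 was low in CHAC1 (0.6448) and in CPVL (0.8135), a serine carboxypeptidase-like protein at 1.48 CPM against at least 11.1 CPM. It was high in HDAC9 (0.6898), a class II histone deacetylase at 9.17 CPM against at most 4.87 CPM, and in MEAF6 (0.7866), where the difference itself was small, at 39.4 CPM against at most 37.9 CPM.

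Clone 6 was low in CYBA (0.774), NLRP2 (0.7082) and RPL18 (0.6368), and high in DDIT4 (0.8077) and RPL37 (0.7611). RPL18 and NLRP2 lie in the low stretch of chromosome 19 and RPL37 in the high stretch of chromosome 5, while CYBA was low inside the high stretch of chromosome 16. The ribosomal protein gene RPL18 was at 535 CPM in clone 6 against at least 735 CPM, and RPL37 at 653 CPM against at most 411 CPM.

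Of the medians of the log2 difference over a chromosome's genes, here from the median of the 6 clones, chromosome 22 was separate in clone 1 (0.8647, median -0.44), chromosome 6 in clone 3 (0.6768, -0.18), and chromosomes 16 (0.695, 0.07) and 19 (0.6738, -0.12) in clone 6.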

How the results depend on the processing

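No direction reversed. With DESeq2, 136 genes differed among the clones, with no count filter 134, and with spread from all 20 libraries 3, against 0; without each library in turn the count was 0. For single clones, DESeq2 gave 94, 2, 8, 14, 15 and 36 genes for clones 1 to 6 and no count filter gave 142, 16, 14, 29, 9 and 43, against 6, 0, 0, 0, 0 and 2. All 20 libraries gave 10 for clone 1. Spread from Ni_6W and Ni_6W+2W alone, chosen after seeing the data, gave 1, 1, 2 and 0 for clones 1, 3, 5 and 6. With each library left out the counts ran from 1 to 7 for clone 1, 0 to 1 for clone 3, 0 to 2 for clone 4 and 0 to 2 for clone 6. Genes over 4-fold numbered 96 at a mean of 20 CPM, 576 at 1 CPM and 168 to 263 with each clone left out, against 279. The median SD between clones was 0.43 (replicates 0.53) over all genes and 1.18 (1.11) over the 500 of highest SD. These 500 were picked by their spread over the same clones, so a larger clone spread there was built in. Windows beyond replicates were 10 with GC centring against 1, and list members called, counted once per list, were 31 with DESeq2 against 0. The cause of these shifts was not tested. RLE size factors, a pseudocount of 2 and plain totals kept the counts within 1.5 times. The nearest clone was the same in the other settings except that clone 6 was nearest to clone 4 over the 500 genes. No paired analysis was possible because clone numbers name different clones, each with 1 library. Counting error was small beside the other spread at this depth, and no clone has a second library.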
